A study of Mus musculus with 8 samples.

Results

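The G1 and S phase cyclins and kinases are 8 genes: the D-type cyclins Ccnd1, Ccnd2 and Ccnd3, the E-type cyclins Ccne1 and Ccne2, and the kinases Cdk4, Cdk6 and Cdk2. They were chosen by name from the expression tables of E15.5 mouse germ cells, and each has a single entry among the 24281 named loci of the female table and the 23944 of the male table. RNA-Seq was performed on germ cells sorted from ovaries and testes by the Oct4-EGFP transgene, which drives a fluorescent protein from the Oct4 (Pou5f1) promoter, and all groups carry that transgene. There were 8 libraries, with 2 controls and 2 Snf5 CKO libraries in each sex. The Snf5 CKO embryos were Snf5fx/Δ with TNAP-Cre, a Cre knocked into the Alpl (TNAP) gene that acts in primordial germ cells, and the controls were a mixture of 3 genotypes: Snf5fx/Δ without Cre, Snf5fx/+ without Cre, and Snf5fx/+ carrying TNAP-Cre. The Δ allele is therefore present in all Snf5 CKO embryos and in part of the control embryos, Cre in part of the controls, and the deletion is incomplete, so that some sorted cells of the Snf5 CKO gonads still carry an intact Snf5 allele. Germ cells of several embryos were pooled for each female library and each male control, whereas the male Snf5 CKO embryos are listed singly, with a single embryo for replicate 2. The labels name C57BL/6 as the strain background, while the methods describe a mixed background. SNF5, encoded by Smarcb1, belongs to the core of SWI/SNF, a complex that remodels nucleosomes, and the comparison asks how its loss changes the fetal germ cell transcriptome in each sex.

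In G1, D-type cyclins bind CDK4 and CDK6, and these kinases begin to phosphorylate the retinoblastoma protein, which holds E2F transcription factors in check. E2F then drives genes for DNA replication and Ccne1 and Ccne2, whose products activate CDK2 for entry into S phase. INK4 inhibitors bind CDK4 and CDK6, and CIP/KIP inhibitors bind the cyclin-kinase complexes. In the fetal gonad, male germ cells leave the cell cycle and rest in G1, whereas female germ cells complete a last S phase and enter meiotic prophase, where CDK2 also acts at telomeres.

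Smarcb1 was at 23.4 and 22.3 FPKM in the female controls and at 4.24 and 2.47 FPKM after its deletion. In males it was at 141 and 167 FPKM in the controls and at 8.73 and 10.1 FPKM in Snf5 CKO. FPKM counts fragments per kilobase of transcript, scaled to the mapped fragments of a library, so it can be compared between genes of a library. The log2 fold change of FPKM + 1 for Smarcb1 was -2.48 ± 0.24 (SE) in females, with a limma adjusted p of 0.00029, and -3.90 ± 0.18 in males, with an adjusted p of 0.0022. As here, every fold change is of Snf5 CKO over control with its SE, each group is 2 libraries, and the adjusted p is that of limma with Benjamini-Hochberg adjustment over the 11642 female or 12368 male named loci tested. A gene is called higher or lower where its log2 fold change is 1 or more in size and its adjusted p is under 0.05. Whether the 2 libraries of a group came from separate litters is not given in the sources used here, so the p-values measure the spread between these libraries.

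Cells other than germ cells could enter the sort, and their markers moved with genotype. The paper lists a high purity for every sorted sample, with values of control and Snf5 CKO that overlap in each sex. The germ cell genes Ddx4 and Dazl were at 203 FPKM or more in every library. Ddx4 was lower in Snf5 CKO in both sexes, while Dazl was lower in females and higher in males. Male Pou5f1 and Dppa3 were also higher. The groups did not overlap in any of these comparisons, and none was called. Of all genes tested, 45.3% in females and 39.9% in males lay lower in Snf5 CKO without overlap. In males 34.5% of all genes lay higher without overlap. Of 6 germ cell markers, 3 were called higher and 1 lower in females, and 0 higher and 2 lower in males. For these and the marker counts below, 17.2% of all tested female genes were called higher and 21.8% lower. In males these shares were 14.3% and 17.5%. Mael was called lower in both sexes, from a mean of 650 to 172 FPKM in females and from 998 to 128 in males. Dnd1 was called higher in females and lower in males, and Dppa3 was called higher in females. Pou5f1, whose promoter drives the sorting transgene, was at 8.63 and 16.7 FPKM in female controls against 295 and 333 in female Snf5 CKO germ cells, and between 399 and 648 FPKM in the male libraries. All 8 Sertoli cell markers were called higher in male Snf5 CKO libraries, and their summed level was 92.2 and 74.5 FPKM in control and 386 and 561 in Snf5 CKO. Male Cldn11, 1 of the 8, was at 0.151 and 0.171 FPKM in control and 0.921 and 2.77 in Snf5 CKO. It passed the filter of a mean of 1 FPKM only through Snf5 CKO. The summed level of 5 Leydig cell markers was 85.7 and 58.2 FPKM in male control and 19.2 and 15.1 in male Snf5 CKO libraries. In females 3 of 6 tested pre-granulosa markers were called higher, with a sum of 7.06 and 10.1 FPKM in control and 27.6 and 25.9 in Snf5 CKO. The 8 Sertoli markers summed to 5.21 and 7.99 FPKM in female controls and 17.3 and 16.7 in female Snf5 CKO libraries, with Sox9 at 0.132 FPKM or less in each. Stromal markers summed to between 3.06 and 22.1 FPKM over the 8 libraries, lower in Snf5 CKO in both sexes. Blood and endothelial markers summed to between 23.8 and 99.7 FPKM, with overlapping groups in both sexes. Among them Pecam1 was called higher in females, at 4.10 and 3.65 FPKM in control and 24.3 and 19.7 in Snf5 CKO. Female Cdh5 and Kdr were lower in Snf5 CKO, at levels under the filter, so the endothelial markers did not move together. In the male libraries Pecam1 was between 6.20 and 9.23 FPKM, with overlapping groups. Which cells the Pecam1 transcripts came from was not tested. The part of these cells in the results that follow was not tested, and in such bulk samples fewer cells of a type and less RNA per cell cannot be told apart.

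Promoter sequences are shown for the 3 kinases, because Cdk4 had the highest level of the 8 genes in 3 of the 4 groups and the kinases differed in how they moved. RefSeq promoters of the GRCm38.p6 build matched 5 of the 8 genes (Ccne1, Cdk2, Cdk4, Cdk6 and, with 2 starts, Ccnd3), and Ccnd1, Ccnd2 and Ccne2 did not match. Each sequence is the 250 bases before the start, 5′ to 3′ on the strand of the gene. For Cdk6 this window lies inside the measured locus, which starts at 3341451 in the female and 3341241 in the male libraries. The end of the Cdk4 window lies inside the female locus, which starts at 127063508, and before the male locus, which starts at 127063603. Capitals mark an E-box (CACGTG), the site that Myc and Max bind, or an E2F-type site (TTTCGCGC, TTTGGCGC, TTTCCCGC or TTTGCCGC), each searched on both strands.
Cdk4, chr10:127063285-127063534, plus strand: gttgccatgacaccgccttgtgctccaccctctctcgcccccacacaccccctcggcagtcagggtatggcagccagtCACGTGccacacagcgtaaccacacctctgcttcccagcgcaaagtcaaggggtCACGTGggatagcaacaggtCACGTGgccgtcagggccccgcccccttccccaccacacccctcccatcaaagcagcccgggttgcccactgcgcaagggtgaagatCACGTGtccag
Cdk6, chr5:3343643-3343892, plus strand: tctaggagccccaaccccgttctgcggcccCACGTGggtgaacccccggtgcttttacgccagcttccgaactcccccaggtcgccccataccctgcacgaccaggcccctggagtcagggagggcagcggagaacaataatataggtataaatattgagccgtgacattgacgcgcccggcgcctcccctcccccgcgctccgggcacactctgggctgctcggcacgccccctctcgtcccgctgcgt
Cdk2, chr10:128705052-128705301, minus strand: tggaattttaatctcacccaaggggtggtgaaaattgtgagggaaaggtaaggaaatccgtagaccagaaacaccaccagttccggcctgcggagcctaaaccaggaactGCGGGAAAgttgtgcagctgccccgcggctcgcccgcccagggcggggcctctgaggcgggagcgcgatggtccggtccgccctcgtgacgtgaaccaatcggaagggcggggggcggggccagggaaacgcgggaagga
The Cdk4 promoter held 4 E-boxes, the Cdk6 promoter 1, and those of Cdk2, Ccne1 and Ccnd3 held none. The last E-box of Cdk4, between 11 and 6 bases before the start, lies inside the measured female locus. Of all 32851 promoters in the table, 6.02% held at least 1 E-box in this window and 0.0213% held at least 4. The Cdk2 promoter held the E2F-type site TTTCCCGC in reverse orientation, between 140 and 133 bases before the start, and any E2F-type site was in 1.86% of all promoters. No E2F-type site was found in the windows of Ccne1, Cdk4, Cdk6 or Ccnd3. The search is a description of letters and says nothing about binding in these cells.

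In female germ cells the 3 D-type cyclins and Cdk4 rose in Snf5 CKO by 4.23-fold to 7.88-fold in FPKM, Ccne2 fell to 0.165 of its control level, and Ccne1, Cdk2 and Cdk6 were not called. In male germ cells Ccnd1, Ccnd2, Ccne1 and Ccne2 rose by 2.89-fold to 7.96-fold, and Ccnd3, Cdk2, Cdk4 and Cdk6 were not called. All 8 genes passed the filter of a mean of 1 FPKM over the 4 libraries in both sexes, but female Ccnd2 and Cdk6 did so only through Snf5 CKO, where they were higher, with control means under 1 FPKM. Of the 8 genes, 4 were called higher and 1 lower in females, against 17.2% of all tested genes called higher and 21.8% called lower, and without any filter the counts were also 4 and 1. In males 4 were called higher and 0 lower, against 14.3% and 17.5%. With an adjusted p under 0.05 and no requirement on the fold, 5 genes were higher and 2 lower in females (26.7% and 34.8% of all tested genes), and 6 were higher and 1 lower in males (20.9% and 25.3%). The groups did not overlap for any of the 8 genes in either sex. In females 6 genes had both Snf5 CKO libraries above both controls and 2 had them below, as did 36.2% and 45.3% of all genes. In males these counts were 7 and 1, beside 34.5% and 39.9% of all genes, so a lack of overlap alone was common among all genes tested. The median log2 fold change of the 8 genes was 1.43 in females and 0.86 in males, beside -0.14 and -0.07 for all genes tested. Rescaling each male library to a common sum left 33.8% of all called male genes on the higher side, against 45.1% as deposited, and moved the median of all male genes to -0.26. Median-of-ratios rescaling turned the balance of all calls the other way, with 52.9% of female and 54.5% of male calls on the higher side. No fold change of the 8 genes changed sign under any alternative tried.

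**Figure D1:**
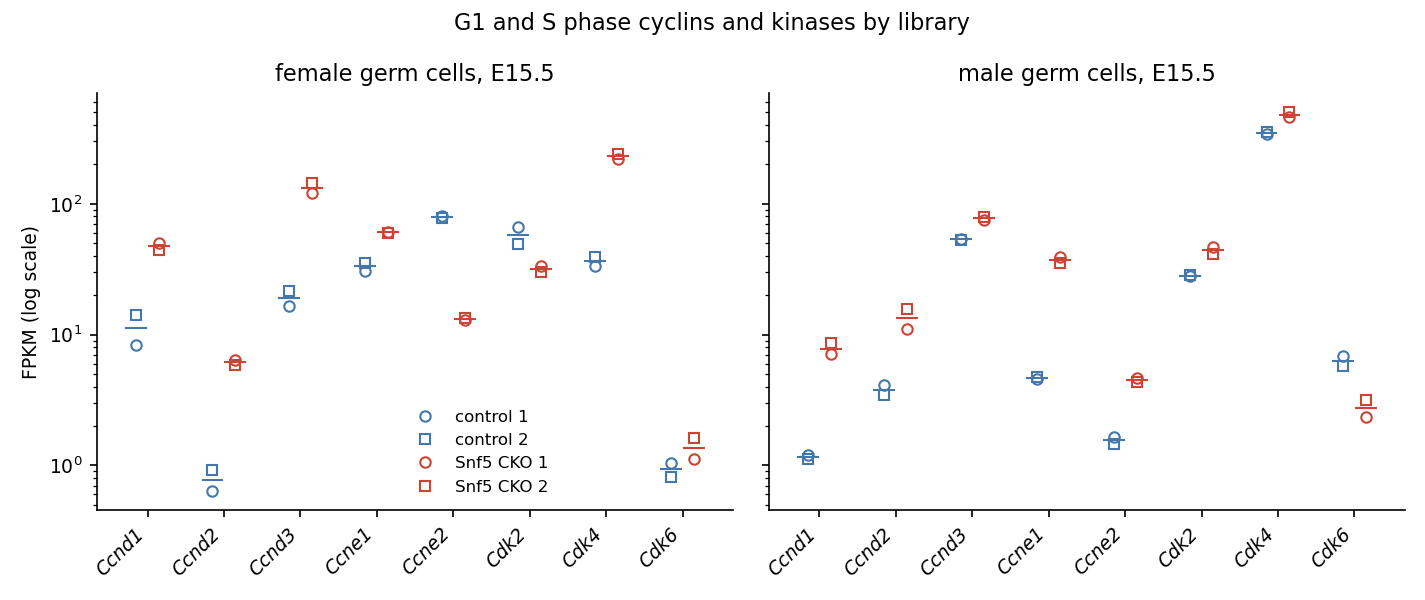
FPKM (log scale) of the 8 genes in the 4 female and 4 male libraries. Circles are replicate 1, squares replicate 2, blue control, red Snf5 CKO, and short lines the means. Red and blue points of a gene do not overlap in any panel, and red lies below blue for Ccne2 and Cdk2 in females and for Cdk6 in males.

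Among the D-type cyclins, Ccnd3 had the highest level in every library. In the female controls Ccnd3 was at 16.5 and 21.4 FPKM, and in the female Snf5 CKO libraries at 121 and 144. Both Snf5 CKO libraries stood far above both controls, a log2 fold change of 2.75 ± 0.20 (SE, n = 2) with an adjusted p of 0.00013 (limma). In males Ccnd3 was already high in the controls, at 54.1 and 53.3 FPKM, and at 75.2 and 79.6 FPKM in Snf5 CKO. The male log2 fold change of 0.52 ± 0.16 had an adjusted p of 0.049 and lay below the fold required for a call, with a 95% interval of 0.11 to 0.93. The Ccnd3 entry lies within chr17:47505051-47611492 (mm10) in the female table, a locus that it shares with Bysl, a ribosome biogenesis gene on the opposite strand, and the library kit does not mark strand. Bysl was at 8.15 and 8.99 FPKM in female control and 28.7 and 30.6 in female Snf5 CKO, and between 22.7 and 23.6 FPKM in all 4 male libraries. In GENCODE M21, 4.11% of the exonic bases of Ccnd3 overlap exons of Bysl.

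Ccnd1 rose in both sexes. In the female controls it was at 8.32 and 14.1 FPKM, and in Snf5 CKO at 50.4 and 44.5, a log2 fold change of 2.03 ± 0.25 with an adjusted p of 0.00074 (limma). In males Ccnd1 was the lowest of the 8 genes in control, at 1.19 and 1.11 FPKM, and reached 7.08 and 8.55 FPKM in Snf5 CKO. The male log2 fold change was 2.03 ± 0.19, with an adjusted p of 0.0027. Without moderation, limma's sharing of the variance across genes, the adjusted p was 0.078 in females and 0.051 in males. Ccnd1 is on chromosome 7, at 144929931 to 144939925 (mm10) in the female table, and 23.4% of its exonic bases in GENCODE M21 are shared with exons of the opposite-strand gene listed as Oraov1 in the tables. Oraov1 was at 14.1 and 11.4 FPKM in female control and 5.46 and 7.42 in female Snf5 CKO, and between 4.71 and 5.98 FPKM in males.

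Ccnd2 was the least abundant D-type cyclin in females, at 0.639 and 0.916 FPKM in control and 6.43 and 5.82 FPKM in Snf5 CKO. The groups were well apart, and the log2 fold change was 2.01 ± 0.20 with an adjusted p of 0.00031 (limma). Because Ccnd2 entered the female test through its Snf5 CKO values, this call is not independent of the filter, and without a filter the adjusted p was 0.0037. On the scale of FPKM + 1 this value understates the change of a gene whose control level is under 1 FPKM, and the ratio of the mean FPKM was 7.88. In males Ccnd2 was at 4.09 and 3.48 FPKM in control and 11.004 and 15.6 in Snf5 CKO, a log2 fold change of 1.56 ± 0.24 with an adjusted p of 0.0069. Without moderation the male adjusted p was 0.088. Every male difference, not only that of Ccnd2 and Ccnd1, involves the 2 Snf5 CKO libraries in which the Sertoli cell markers were higher. The part of Sertoli cells in it was not tested. The long noncoding entry 9330179D12Rik at the locus of Ccnd2 on chromosome 6 was at 0.144 FPKM or less in every library.

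The 3 D-type cyclins summed to 25.4 and 36.5 FPKM in female control and 178 and 194 FPKM in female Snf5 CKO. In males the sums were 59.3 and 57.8 FPKM in control and 93.3 and 104 FPKM in Snf5 CKO. A share of this sum does not depend on how a library was scaled. Ccnd3 made up 64.8% and 58.7% of the D-type sum in female control and 68.1% and 74.0% in female Snf5 CKO, a difference of 9.31 percentage points. In males the share of Ccnd3 was 91.1% and 92.1% in control and 80.6% and 76.7% in Snf5 CKO, 12.9 percentage points lower (the means were 91.6% ± 0.69 and 78.7% ± 2.75, SD, n = 2). Ccnd1 took 32.7% and 38.8% in female control and 28.3% and 23.0% in female Snf5 CKO, and 2.01% and 1.92% in male control and 7.60% and 8.24% in male Snf5 CKO. Ccnd2 took 2.51% in each female control and 3.61% and 3.004% in female Snf5 CKO, and 6.90% and 6.01% in male control and 11.8% and 15.1% in male Snf5 CKO. The groups did not overlap for any of these shares, and the exact two-sided permutation test gave p = 0.333 for each, the smallest value that 2 libraries against 2 allow.

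The E-type cyclins had different patterns in the 2 sexes, a difference that was not tested. Ccne2 was at 81.0 and 77.7 FPKM in the female controls, the highest of the 8 genes there, and at 12.8 and 13.4 FPKM in female Snf5 CKO. Both Snf5 CKO values lay far below both controls, a log2 fold change of -2.51 ± 0.16 with an adjusted p of 0.00011 (limma). In males Ccne2 was at 1.64 and 1.47 FPKM in control and at 4.65 and 4.33 FPKM in Snf5 CKO. The male groups were apart in the other direction, a log2 fold change of 1.10 ± 0.18 with an adjusted p of 0.0079. This male call was lost after rescaling to a common sum (adjusted p = 0.052) and without moderation (adjusted p = 0.0505). Ccne2 shares its locus, chr4:11191351-11254259 (mm10), with Ints8, an Integrator complex gene on the opposite strand, and 17.4% of the exonic bases of Ccne2 overlap exons of Ints8. Ints8 was at 158 and 133 FPKM in female control and 90.8 and 64.3 in female Snf5 CKO, and at 86.1 and 64.9 FPKM in male control and 56.3 and 42.2 in male Snf5 CKO. Its Snf5 CKO values lay below its control values in both sexes, and neither difference was called.

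Ccne1 was higher in Snf5 CKO in both sexes. It was at 30.9 and 35.5 FPKM in female control and 61.0 and 60.3 FPKM in female Snf5 CKO, a log2 fold change of 0.85 ± 0.17 with an adjusted p of 0.0045 (limma) that did not reach the fold for a call. After median-of-ratios rescaling the female fold change was 1.02 with an adjusted p of 0.0025, which would be a call. In males Ccne1 was at 4.59 and 4.76 FPKM in control and 39.1 and 35.3 FPKM in Snf5 CKO. The male groups lay far apart, a log2 fold change of 2.75 ± 0.17 with an adjusted p of 0.0022 and the largest male fold change among the 8 genes. Ccne1 is on chromosome 7, from 38097984 to 38107490 (mm10), and shares no exonic base with another gene of GENCODE M21.

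Ccne1 and Ccne2 together summed to 112 and 113 FPKM in female control and 73.8 and 73.7 FPKM in female Snf5 CKO. In males they summed to 6.23 FPKM in each control and 43.8 and 39.6 FPKM in Snf5 CKO. The share of Ccne1 in this sum was 27.6% and 31.4% in female control and 82.6% and 81.8% in female Snf5 CKO, a difference of 52.7 percentage points. In males it was 73.6% and 76.5% in control and 89.4% and 89.1% in Snf5 CKO, 14.2 percentage points higher. Neither share overlapped between groups (exact permutation p = 0.333 each). Ccne2 was thus the main E-type transcript in the female controls, and Ccne1 in the other 3 groups.

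Chosen after its values were seen, the share of D-type cyclins in the sum of all 5 cyclins was 18.5% and 24.4% in female control and 70.7% and 72.5% in female Snf5 CKO. In males it was 90.5% and 90.3% in control and 68.1% and 72.4% in Snf5 CKO. The controls of the sexes lay on opposite sides of the Snf5 CKO libraries, whose shares ranged from 68.1% to 72.5% over both sexes. The exact permutation p was 0.333 in each sex. The female and male tables were normalized apart, and no test was made between them.

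**Figure D2:**
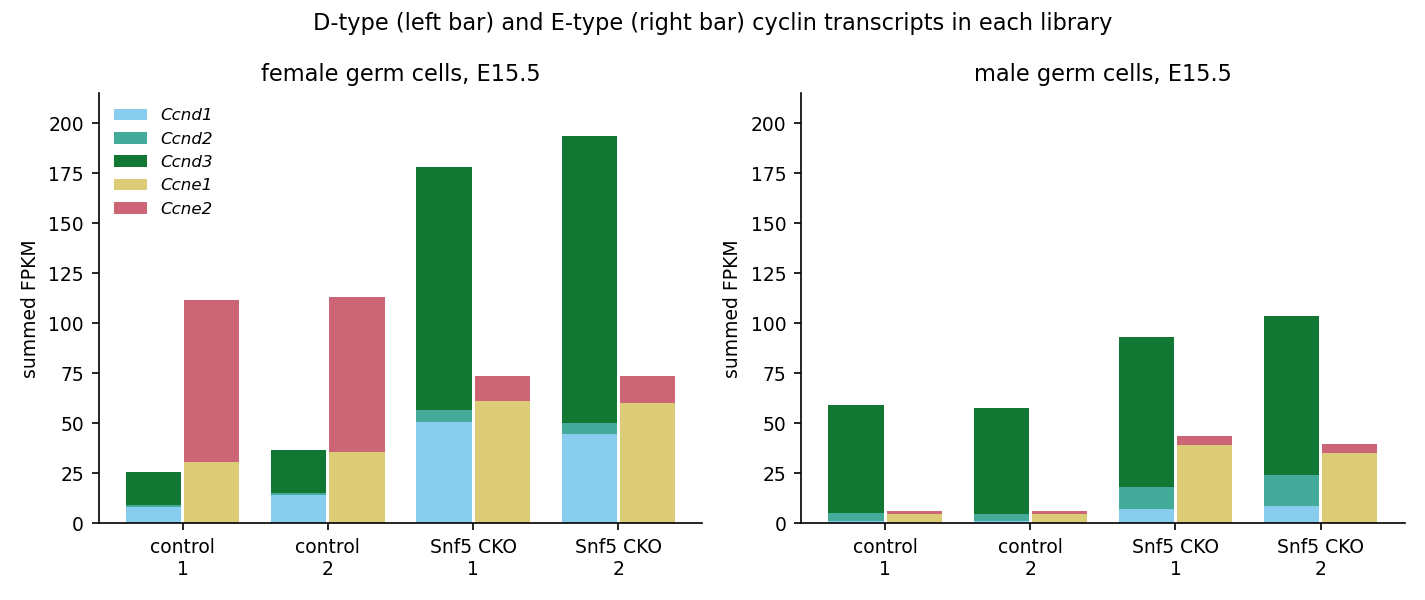
Summed FPKM of the D-type cyclins (left bar of each pair) and E-type cyclins (right bar) in each female and male library, on a linear axis that starts at 0. In female controls the E-type bar (112 and 113 FPKM) stands above the D-type bar (25.4 and 36.5 FPKM) and is mostly Ccne2. In the other 6 libraries the D-type bar is the taller of the pair.

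Cdk4, which pairs with the D-type cyclins, was at 33.2 and 39.5 FPKM in female control and at 220.4 and 242 FPKM in female Snf5 CKO. The 2 groups were widely separated, a log2 fold change of 2.64 ± 0.18 with an adjusted p of 0.00012 (limma). In males Cdk4 was at 341 and 353 FPKM in control and 459 and 499.6 FPKM in Snf5 CKO, the highest level of the 8 genes in each male library. The Snf5 CKO libraries were above the controls, but the male log2 fold change of 0.46 ± 0.22 had an adjusted p of 0.15 and a 95% interval from -0.11 to 1.03. Cdk4 lies on chromosome 10, from 127063508 to 127067285 (mm10) in the female table, and 19.7% of its exonic bases in GENCODE M21 overlap the opposite-strand gene Tspan31. Tspan31 rose in females, from 15.1 and 17.8 FPKM to 68.7 and 58.7 FPKM, and in males was at 115 and 119 FPKM in control and 61.5 and 70.4 FPKM in Snf5 CKO. The part of shared exons in the Cdk4 values was not tested.

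Cdk6, the other partner of the D-type cyclins, was low in every group. In females it was at 1.05 and 0.818 FPKM in control and 1.11 and 1.62 FPKM in Snf5 CKO, a log2 fold change of 0.29 ± 0.21 with an adjusted p of 0.27 (limma) and a 95% interval from -0.21 to 0.78. In males it was at 6.82 and 5.70 FPKM in control and 2.34 and 3.13 FPKM in Snf5 CKO. The male groups did not overlap, and the log2 fold change was -0.96 ± 0.21 with an adjusted p of 0.019, just short of the fold for a call. With a pseudocount of 0.1 the male value was -1.17, with a common sum it was -1.17, and without control replicate 2 or Snf5 CKO replicate 2 it was -1.07 and -1.12, each past both thresholds. Cdk6 made up 3.06% and 2.03% of the sum of Cdk4 and Cdk6 in female control and 0.5002% and 0.667% in female Snf5 CKO. In males this share was 1.96% and 1.59% in control and 0.508% and 0.623% in Snf5 CKO (exact permutation p = 0.333 in each sex). Cdk4 was thus the main D-type cyclin partner at the transcript level in all 8 libraries.

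Cdk2, the partner of the E-type cyclins, was at 66.6 and 49.0 FPKM in female control and 33.6 and 30.1 FPKM in female Snf5 CKO. The female controls differed from each other by more than the Snf5 CKO libraries did, and both lay above them. The female log2 fold change was -0.82 ± 0.20 with an adjusted p of 0.011 (limma), under the fold for a call, and without control replicate 2 it was -1.04 with an adjusted p of 0.0023. In males Cdk2 was at 27.8 and 28.4 FPKM in control and 46.7 and 41.2 FPKM in Snf5 CKO. The male log2 fold change was 0.63 ± 0.17 with an adjusted p of 0.032 and a 95% interval of 0.20 to 1.05. Cdk2 is on chromosome 10, from 128697939 to 128705051 (mm10), and 0.547% of its exonic bases overlap Pmel, which was at 9.06 FPKM or less in every library. Of the 3 kinase transcripts Cdk4 made up 32.9% and 44.2% in female control and 86.4% and 88.4% in female Snf5 CKO, and between 90.3% and 91.8% in the male libraries, where the groups overlapped. This last share was chosen after its values were seen.

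**Figure D3:**
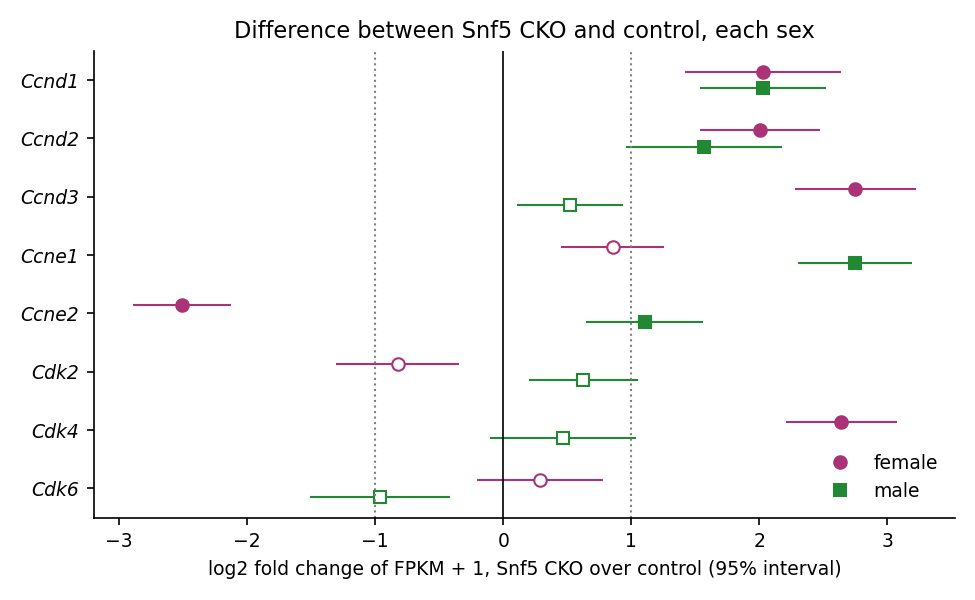
Log2 fold change of FPKM + 1 (x axis) with its 95% interval for the 8 genes, circles for females and squares for males. Filled symbols are called, dotted lines mark the fold threshold of 1. Ccne2 lies at -2.51 in females and 1.10 in males, while Ccnd1 lies at 2.03 in both sexes.

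The order of the 8 genes by mean FPKM changed with genotype in both sexes, in males only below Cdk4, Ccnd3 and Cdk2. In female control it was Ccne2 (79.4 ± 2.3, SD, n = 2), Cdk2 (57.8 ± 12.4), Cdk4 (36.4 ± 4.4), Ccne1 (33.2 ± 3.3), Ccnd3 (19.0 ± 3.5), Ccnd1 (11.2 ± 4.1), Cdk6 (0.933 ± 0.16) and Ccnd2 (0.778 ± 0.20). The neighbours Cdk4 and Ccne1, and Cdk6 and Ccnd2, overlapped in these 2 libraries. In female Snf5 CKO the order was Cdk4 (231 ± 15), Ccnd3 (132 ± 16), Ccne1 (60.6 ± 0.50), Ccnd1 (47.5 ± 4.2), Cdk2 (31.9 ± 2.5), Ccne2 (13.1 ± 0.45), Ccnd2 (6.13 ± 0.43) and Cdk6 (1.37 ± 0.36), with no overlap between neighbours. In male control it was Cdk4 (347 ± 8.1), Ccnd3 (53.7 ± 0.57), Cdk2 (28.1 ± 0.43), Cdk6 (6.26 ± 0.79), Ccne1 (4.67 ± 0.12), Ccnd2 (3.79 ± 0.44), Ccne2 (1.56 ± 0.13) and Ccnd1 (1.15 ± 0.056). In male Snf5 CKO it was Cdk4 (479 ± 29), Ccnd3 (77.4 ± 3.2), Cdk2 (43.9 ± 3.8), Ccne1 (37.2 ± 2.7), Ccnd2 (13.3 ± 3.3), Ccnd1 (7.82 ± 1.0), Ccne2 (4.49 ± 0.23) and Cdk6 (2.74 ± 0.56). Neighbours did not overlap in either male group, and Cdk4, Ccnd3 and Cdk2 led both.

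For each gene, the gene outside the 8 with the most similar pattern was sought among 10464 genes tested in both sexes, by the root-mean-square difference of log2(FPKM + 1) from the same-sex control mean over the 8 libraries. Ccnd3 and Cdk4 differed from each other by 0.0757, less than from any gene outside the 8. The nearest outside gene was Itm2c for Cdk4 (0.0953). It was Nkain4 for Ccnd1 (0.112), 2010204K13Rik for Ccnd2 (0.129) and Sephs2 for Ccne1 (0.0889). For Ccne2 it was Ddb2 (0.125), at 186 and 183 FPKM in female control against 28.7 and 33.5 in female Snf5 CKO, and 7.28 and 8.46 FPKM in male control against 17.1 and 20.8 in male Snf5 CKO. For Cdk2 it was Uqcrc2 (0.0911), and for Cdk6 it was Traip (0.119).

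The inhibitors of these kinases moved in both directions. Of 7 CDK inhibitor genes, 3 were called higher and 2 lower in each sex, with median log2 fold changes of -0.04 in females and 0.01 in males. Cdkn1a, a p53-responsive CIP/KIP inhibitor, rose from a mean of 4.28 to 66.6 FPKM in females (log2 fold change 3.68 ± 0.22, adjusted p = 0.00011, limma) and from 6.61 to 64.0 FPKM in males (3.09 ± 0.29, adjusted p = 0.0027). Cdkn2d, an INK4 inhibitor, rose from 56.7 to 141 FPKM in females and from 20.1 to 77.9 FPKM in males, changes of 1.34 (adjusted p = 0.0034) and 1.91 (adjusted p = 0.0048) on the log2 scale. Cdkn2a, which encodes the INK4 inhibitor p16 and the unrelated ARF protein, fell by 1.31 on the log2 scale in females and by 1.62 in males, with adjusted p of 0.0024 and 0.0048. Cdkn2c, another INK4 gene, went opposite ways: from 8.82 to 3.05 FPKM in females (-1.28, adjusted p = 0.0013) and from 1.24 to 4.13 FPKM in males (1.20, adjusted p = 0.0077). Cdkn1b, which encodes p27, was called higher in females (0.562 to 3.03 FPKM, 1.38, adjusted p = 0.0014, past the filter only through Snf5 CKO), while the male value was -0.02 (adjusted p = 0.96, 95% interval -0.78 to 0.75). Cdkn2b was called lower in males (8.67 to 2.45 FPKM, -1.49, adjusted p = 0.0044), while the female value was -0.48 (adjusted p = 0.059, 95% interval -0.93 to -0.04 before adjustment). Cdkn1c, which encodes p57, was between 45.2 and 52.5 FPKM in females and between 27.8 and 34.6 in males, with groups that overlapped in both sexes.

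None of the 3 retinoblastoma family genes was called in either sex, and their median log2 fold changes were -0.08 and 0.30. Rb1 was between 14.4 and 17.5 FPKM in females and between 15.9 and 23.2 FPKM in males, with 95% intervals of the log2 fold change from -0.51 to 0.34 and from -0.21 to 0.81. Rbl1 had log2 fold changes of 0.16 and 0.34 (95% intervals -0.46 to 0.78 and -0.30 to 0.98). Rbl2 was at 2.66 and 2.21 FPKM in female control and 1.28 and 0.830 in female Snf5 CKO, a log2 fold change of -0.74 with an adjusted p of 0.019 (limma) that missed the fold, and its male value was 0.15 (95% interval -0.50 to 0.79).

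Of 10 genes for E2F and DP factors, 3 were called higher and 0 lower in females, and 6 higher and 1 lower in males, with medians of 0.73 and 1.02. In females the largest rises were those of E2f3 (1.16 to 7.10 FPKM, log2 fold change 1.90, adjusted p = 0.00038, limma) and the repressive member E2f6 (6.01 to 24.5 FPKM, 1.88, adjusted p = 0.00058). In males they were E2f8, an atypical repressor (0.580 to 7.41 FPKM, 2.38, adjusted p = 0.0044) and E2f2 (0.451 to 2.58 FPKM, 1.30, adjusted p = 0.0043), both of which passed the filter only through Snf5 CKO. Tfdp2, a dimerization partner of E2F, fell by 1.13 in males (adjusted p = 0.017), a call that was lost without control replicate 1 (-0.96, adjusted p = 0.077), without Snf5 CKO replicate 2 (-0.92), after median-of-ratios rescaling (-0.98) and on linear FPKM (adjusted p = 0.066). In the list for kinase activation and cyclin turnover, 2 of 11 genes were called higher and 1 lower in females, and 2 higher and 2 lower in males, with medians of 0.21 and 0.56. Skp2, an F-box protein that targets p27 for degradation, rose in both sexes, with log2 fold changes of 2.23 in females (adjusted p = 0.00037) and 1.24 in males (adjusted p = 0.013), where the call was lost with a common sum (adjusted p = 0.089) and on linear FPKM (adjusted p = 0.068). Its cofactor Cks1b rose in females (36.3 to 245 FPKM, 2.72, adjusted p = 0.00023), and Fbxw7, the F-box protein that targets cyclin E, fell by 1.83 in females (55.9 to 14.8 FPKM, adjusted p = 0.00056). In males Wee1, a kinase that restrains CDKs, rose (1.77, adjusted p = 0.0050), while Ambra1, a ligase adaptor for D-type cyclins, fell by 1.499 (adjusted p = 0.025) and Ccnh, the cyclin of the CDK-activating kinase, fell by 1.02 (adjusted p = 0.025). The call of Ambra1 was lost without control replicate 1 (-1.11, adjusted p = 0.071) and on linear FPKM (adjusted p = 0.0999). That of Ccnh was lost without control replicate 2 (adjusted p = 0.095), without Snf5 CKO replicate 1 (adjusted p = 0.104), after median-of-ratios rescaling (-0.86) and on linear FPKM (adjusted p = 0.054).

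Of 4 Myc family genes, 2 were called higher in each sex, with medians over the 3 tested of 1.27 and 1.52, and Myc did not pass the filter in either sex. Mycn rose from 6.65 and 11.3 FPKM to 142 and 138 FPKM in females (log2 fold change 3.86, adjusted p = 0.00011, limma) and from 15.1 and 14.0 FPKM to 97.0 and 103 FPKM in males (2.70, adjusted p = 0.0022). Max, the dimer partner of Myc proteins, rose in females (1.27, adjusted p = 0.0021), and Mycl rose in males (1.52, adjusted p = 0.012, and 0.080 on linear FPKM). Among 16 S phase genes known as E2F targets, 10 were called higher and 1 lower in females, and 10 higher and 0 lower in males, with median log2 fold changes of 1.20 and 1.22. In females Tyms (thymidylate synthase, 2.49, adjusted p = 0.00015) and Mcm7 (a replicative helicase subunit, 2.39, adjusted p = 0.00018) led, and Orc1, an origin recognition subunit, fell by 1.09 (adjusted p = 0.0033), under the fold for a call without control replicate 1 (-0.99), without Snf5 CKO replicate 2 (-0.90) and after median-of-ratios rescaling (-0.92). In males Rrm2 (a ribonucleotide reductase subunit, 3.25, adjusted p = 0.0023) and Tk1 (thymidine kinase, 2.76, adjusted p = 0.0023) led, and Orc1 rose (1.18, adjusted p = 0.037). Among 6 genes of A-type and B-type cyclins and Cdk1, 5 passed the filter. Of these, 4 were called higher and 1 lower in females and 3 higher and 1 lower in males, with medians of 1.83 and 1.07. Ccnb1 rose from 13.6 and 11.7 to 248 and 251 FPKM in females (4.20, adjusted p = 0.00011), Ccna2 rose in both sexes (2.24 and 1.62), and Cdk1 rose by 1.82 in males (adjusted p = 0.0027). Ccnb3, a cyclin of meiotic cells, fell by 4.01 in females (adjusted p = 0.00011) and by 2.47 in males (adjusted p = 0.0023), where it passed the filter only through control. Over all 57 listed pathway genes, 24 were called higher and 5 lower in females and 26 higher and 6 lower in males, of 55 tested in each sex, beside 17.2% and 21.8% of all tested female genes and 14.3% and 17.5% of all tested male genes. With a common sum the male count of 26 became 16. Without moderation the calls of 9 of the 18 named female pathway genes and of 16 of the 19 named male ones were lost, Skp2 and Orc1 in females and Skp2, Tfdp2, Ambra1 and Ccnh in males among them. The lists were chosen with earlier results of these libraries known, so these counts are a description.

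**Figure D4:**
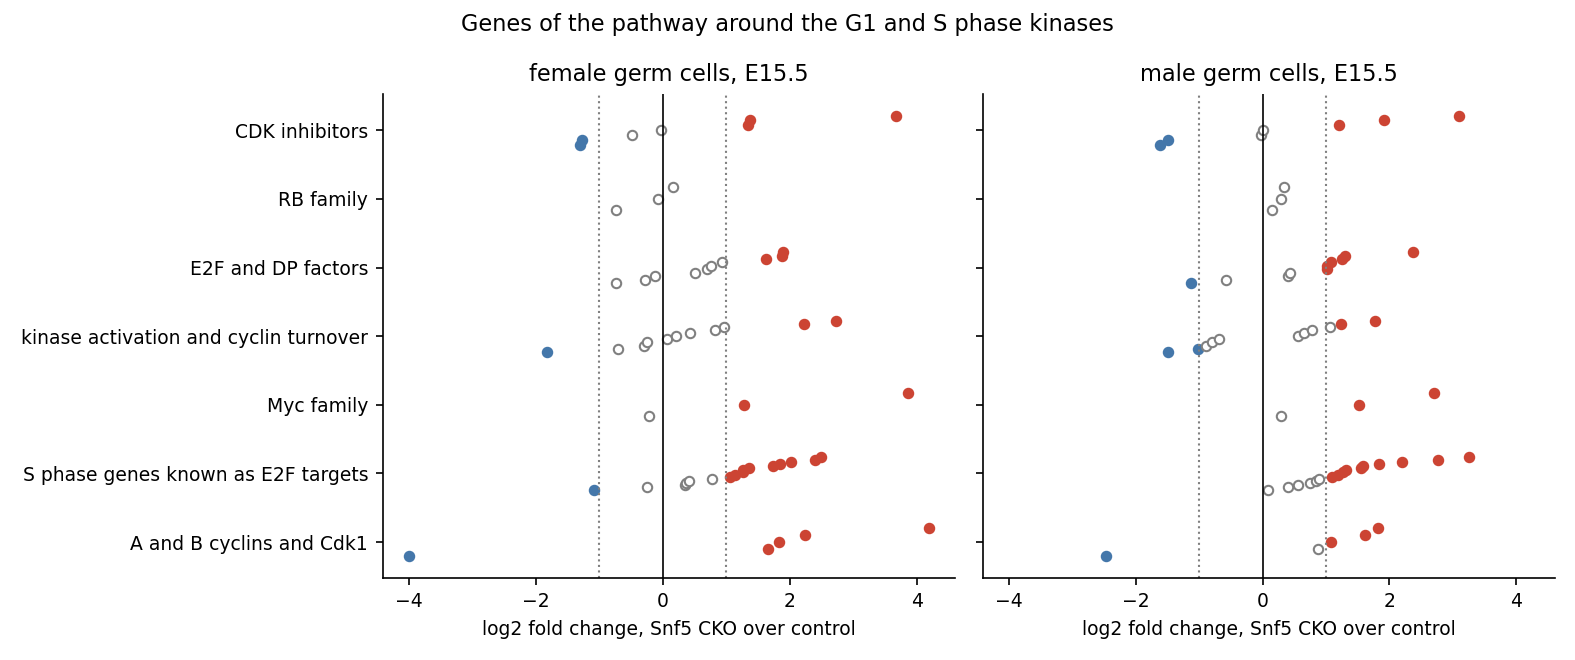
Log2 fold change (x axis) of each tested gene in the 7 pathway lists, females on the left and males on the right. Red points were called higher, blue points lower, and open points were not called. CDK inhibitors lie on both sides of 0, no retinoblastoma family gene is called, and most genes of the S phase list and of the A-type and B-type cyclin list lie to the right.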

How the data were processed

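RNA-Seq was performed on E15.5 germ cells, with cDNA from total RNA amplified by a SMART-Seq kit that does not mark strand. The authors used Tophat for mapping to mm10 and Cufflinks for quantification, and they deposited 1 table per sex with FPKM, confidence bounds (16 columns, not used) and a status. The labels list TopHat2 2.2.1 and Cuffdiff 2.1.1, and the annotation version is not given in the sources used here. Groups follow the sample labels and column names. Table starts are counted from 0, so 1 was added.

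Unnamed loci (5.46% to 42.1% of the FPKM of a library) were left out. In males their share followed the replicate number. It was 6.56% in control and 5.46% in Snf5 CKO of replicate 1, and 42.1% and 35.4% in replicate 2. In females it was 36.7% and 35.3% in control and 9.94% and 28.2% in Snf5 CKO. The tables hold no counts and the total depth is unknown, so no counting interval is given. The commonest ratios of values under 0.1 FPKM place the libraries at 1.25 to 2.43 times the depth of control replicate 1 in females. In males they give 0.946 to 1.47, where control replicate 2 may be 2 times deeper than the ratio says.

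The female and male tables were fitted separately, on log2(FPKM + 1), by limma 3.58.1 (R 4.3.3) with a trended eBayes, for named loci with a mean of at least 1 FPKM, and p was adjusted by Benjamini-Hochberg over all of them. In simulated data for the female and the male comparison, the fit called 200 and 198 of 200 changed genes. All planted changes lay well past the fold for a call, and the noise was independent and of the same size for all genes. The real data differ in both, so this recovery cannot be carried over to calls near the thresholds. The moderation added 4.69 and 3.03 degrees of freedom. Shares within a library were compared by an exact two-sided permutation test. Figures used matplotlib 3.10.9 in Python 3.11.15.

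The labels give replicate 1 and 2 different raw file styles and the male columns call them experiments, so the number may mark a shared batch. The labels do not state outright that libraries of the same number were handled together. The paper names HiSeq and NextSeq sequencers with different read lengths, and does not say which libraries were read on each. The deviations of same-numbered libraries correlated across genes at 0.504 in females and 0.595 in males, and the replicate block is an alternative. Other alternatives were the pseudocount, the filter, rescaling, moderation, linear FPKM, status OK only, summed loci and leaving out each library. The genes, lists and markers were chosen with earlier results of these data known. Beside the 8 genes, the text names Smarcb1, the nearest gene by pattern (that of Ccnd3 is not reported here), all CDK inhibitor and retinoblastoma genes, and from each other list and sex up to 2 called genes with the largest and up to 2 with the smallest fold change. Genes that share exons with the 8 genes were added after the values were seen.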

Additional observations from a re-analysis of the deposited data

Results flagged for a closer look

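Each of the 11 genes here, of the 8 and the 57 pathway genes, had both Snf5 CKO libraries on one side of both controls in females and on the other side in males. Within a sex such separation was common. It held for 36.2% (above) and 45.3% (below) of all tested female genes, and for 34.5% and 39.9% of male genes. The share of all genes with opposite directions in the sexes was not counted, so the 11 genes are a description. The difference between the sexes was not tested, because each table was normalized alone. Ccne2 had a log2 fold change of -2.51 in females and 1.10 in males, both called. Cdk2 was at -0.82 and 0.63 and Cdk6 at 0.29 and -0.96, and none of these 4 values was called. Of the pathway genes, Cdkn2c was at -1.28 in females and 1.20 in males and Orc1 at -1.09 and 1.18, with a call in each sex, that of Orc1 in females being lost under 4 alternatives. E2f6 was at 1.88 in females, a call, and at -0.57 in males, which was not called. E2f4 was at -0.74 in females and 1.02 in males and E2f5 at -0.29 and 1.25, called in males and not in females. Cdc25a was at -0.30 and 0.78, Mcm5 at -0.24 and 0.85, and Cdc37 at 0.42 and -0.80, with no call in either sex.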

How the results depend on the processing

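With 2 libraries in a group, limma's error rests in large part on the moderation, and no depth is known for single genes. Leaving out 1 library assumes that the lone library of its group varies as the other group does. The replicate block left 4 genes called higher and 1 lower in females and 4 and 0 in males, and it changed no call of the 8 genes. With the block, 27 male pathway genes were called higher in place of 26, and it changed no other call of a named gene. No fold change of the 8 genes reversed under the 15 alternatives.

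The count of the 8 genes called lower became 1 in males with a pseudocount of 0.1 and with a common sum (Cdk6). It ranged from 1 to 2 in females and from 0 to 1 in males when each library was left out, with Cdk2 added without female control replicate 2 and Cdk6 without male control replicate 2 or male Snf5 CKO replicate 2. The count called higher in males became 2 with a mean of at least 5 FPKM, since Ccnd1 and Ccne2 were then not tested, and 1 without moderation. Pathway genes called higher became 16 in males with a common sum. Without moderation they became 11 higher and 2 lower in females and 7 higher and 0 lower in males, and on linear FPKM 3 were lower in males. For the results without moderation, with a common sum and on linear FPKM the cause was not tested.

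All genes called higher and lower fell to 866 and 1055 in females and to 279 and 370 in males without moderation, from 2002 and 2543 and from 1772 and 2160, and the female Smarcb1 value of -2.48 then had an adjusted p of 0.056. With a mean of at least 5 FPKM 1353 male genes were lower, as fewer genes were tested. Median-of-ratios rescaling moved the median of all genes to 0.02 in females and 0.07 in males, from -0.14 and -0.07.

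The values that reversed were of genes not called. After median-of-ratios rescaling Cdkn1c was at 0.14 and Rb1 at 0.080 in females and Cdkn1b at 0.095 in males, and with a common sum Cdkn1c was at -0.18 in males. With each library left out, the range in females was from -0.14 to 0.069 for Cdkn1c, from -0.19 to 0.023 for Rb1 and from -0.13 to 0.45 for Rbl1. In males it was from -0.14 to 0.16 for Cdkn1c, from -0.30 to 0.26 for Cdkn1b and from -0.084 to 0.38 for Rbl2.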

Other observations

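An unnamed locus on chromosome 4, from 11185731 to 11191310 (mm10), ends 41 bases before the locus of Ccne2 in the female table. It was at 15.9 and 10.9 FPKM in female control and 2.26 and 1.61 FPKM in female Snf5 CKO, lower in both Snf5 CKO libraries as Ccne2 was. In the male table an unnamed locus from 11189560 to 11191134 was at 2.33 and 1.83 FPKM in control and 3.68 and 1.56 FPKM in Snf5 CKO, with groups that overlapped. The other unnamed loci within 10000 bases of the 8 genes were at 1.26 FPKM or less in every library. These loci were looked at after the values of Ccne2 had been seen.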
